A study of Mus musculus with 6 samples.

Results

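The Serpina3 cluster genes were followed in cultured mammary fibroblasts of BALB/c and C57BL/6 mice. They were taken as every row of the deposited count table whose gene symbol starts with Serpina3, which gave 4 of 12023 rows: Serpina3g, Serpina3h, Serpina3k and Serpina3n. A working list had named only Serpina3h and Serpina3n, so Serpina3g and Serpina3k came in through the rule. The family was picked because Serpina3h was already known to differ between the strains in these libraries, so the strain values of the 4 rows are given as a description, with no test. The cells came from the mammary fat pad of healthy BALB/c or C57BL/6 females of 8 to 12 weeks and were cultured for 4 days, with 3 biological replicates per strain. The labels name no treatment, transgene or allele for either group. Fat pads were digested with collagenases and DNase, red cells were removed by lysis and the remainder was seeded on collagen. A magnetic separation is named in the design text without its target.

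Serpins are protease inhibitors that offer an exposed stretch, the reactive centre loop, as bait to a protease and trap the enzyme that cuts it. Humans have a single SERPINA3 gene, which encodes the acute phase plasma protein alpha-1-antichymotrypsin, while in mice the gene was duplicated many times and the copies differ most in the loop, and so in the proteases they take. Serpina3n encodes a secreted inhibitor that takes granzyme B and neutrophil elastase, Serpina3g encodes Spi2A, an intracellular inhibitor of lysosomal cathepsins in immune cells, and Serpina3k encodes a plasma protein made in the liver that is also called contrapsin or kallikrein-binding protein. Serpina3h is annotated as a transcribed pseudogene.

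The cluster spans chr12:104112724-104414329 on GRCm38 (mm10), where the GENCODE vM21 annotation places 14 Serpina3 genes, 10 of them protein coding and 4 pseudogenes. Of these, 4 are rows of the count table and 10 are not analysed here. All 4 rows lie on the plus strand, with Serpina3g at chr12:104236245-104241939, Serpina3h at chr12:104247905-104253669, Serpina3k at chr12:104338486-104346144 and Serpina3n at chr12:104406729-104414329. Serpina3g and Serpina3h are thus next to each other, and Serpina3n lies at the far end of the cluster.

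The stretch around the reactive centre loop is shown because the 4 copies differ in sequence there. In Serpina3h the frame from the first ATG stops after 171 codons, ahead of this stretch at bases 1077 to 1178 of the transcript. The stretch ends at base 1046 of 1803 in Serpina3g, 1286 of 2057 in Serpina3k and 1293 of 2064 in Serpina3n. It need not be what libraries of 3′ ends mainly sample. It was read 5′ to 3′ from the annotated transcripts, lies in 1 exon of each gene, and is given in lower case with capitals at the positions where the 4 members are not all the same. It lies at chr12:104253520-104253621 in Serpina3h, chr12:104241081-104241182 in Serpina3g, chr12:104345278-104345373 in Serpina3k and chr12:104413457-104413558 in Serpina3n.
Serpina3h: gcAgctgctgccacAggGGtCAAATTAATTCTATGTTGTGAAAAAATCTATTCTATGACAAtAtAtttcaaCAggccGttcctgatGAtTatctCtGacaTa
Serpina3g: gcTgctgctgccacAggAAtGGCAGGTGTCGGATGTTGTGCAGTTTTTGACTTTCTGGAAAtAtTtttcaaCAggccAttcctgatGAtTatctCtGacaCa
Serpina3k: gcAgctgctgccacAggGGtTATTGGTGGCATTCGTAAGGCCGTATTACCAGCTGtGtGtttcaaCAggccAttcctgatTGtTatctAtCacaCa
Serpina3n: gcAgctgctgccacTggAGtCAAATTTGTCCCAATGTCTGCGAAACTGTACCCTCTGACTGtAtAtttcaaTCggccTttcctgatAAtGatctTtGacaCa
The start of the stretch, the hinge of the loop, and its end, the strand after the loop, are mostly shared, and the capitals crowd in the loop itself. Of 102 bases 56 are capitals in Serpina3h, and the Serpina3k stretch is shorter, at 96 bases.

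A second stretch shows what separates Serpina3h from the intact copies in the reference. In an alignment of the coding part with Serpina3f, Serpina3g, Serpina3i, Serpina3k and Serpina3n, Serpina3h lacked a single base after position 335 of its transcript that all 5 others carried, within the bases below. They lie at chr12:104250463-104250510 in Serpina3h, chr12:104238049-104238097 in Serpina3g, chr12:104340855-104340903 in Serpina3k and chr12:104409012-104409060 in Serpina3n, with capitals as before.
Serpina3h: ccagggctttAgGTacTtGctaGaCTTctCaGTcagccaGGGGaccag
Serpina3g: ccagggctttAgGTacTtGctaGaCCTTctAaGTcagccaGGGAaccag
Serpina3k: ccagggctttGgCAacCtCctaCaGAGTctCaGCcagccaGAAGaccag
Serpina3n: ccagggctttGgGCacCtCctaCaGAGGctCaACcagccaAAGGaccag
Read from its first ATG, the Serpina3h transcript runs for 171 codons before a stop. With 1 base added at that place the frame runs for 408 codons, against 418 in Serpina3n. The reference is the C57BL/6 genome, and the BALB/c sequence at this place was not analysed here.

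The 6 libraries held 1035485 to 4665896 counts, and 3 counts, the upper limit that a count of 0 allows, equal 0.612 to 2.9 CPM (counts relative to a TMM-scaled library total, which corrects for differences in composition). The library of C57BL/6 replicate 1 stood apart, with a mean correlation of 0.779 with the others across genes, against 0.87 to 0.91 for the other 5. Of 10 fibroblast markers 9 were in the table and counted in all libraries (Lum was not in the table), and the sum of these 9 was 6830 to 14555 CPM in BALB/c and 3738 to 16816 CPM in C57BL/6. The 10 mammary epithelial markers were counted too, with sums of 1648 to 9649.5 CPM in BALB/c and 2906 to 15387 CPM in C57BL/6. C57BL/6 replicate 1 had both the lowest fibroblast and the highest epithelial sum. The epithelial sum was also the larger in BALB/c replicate 2 (9649.5 against 6830 CPM) and C57BL/6 replicate 3 (8809 against 8168 CPM). It was the smaller in BALB/c replicates 1 and 3 and C57BL/6 replicate 2. Macrophage and myeloid markers summed to 571 to 892 CPM in BALB/c and 838 to 1658 CPM in C57BL/6. The part of these cell types in the values below was not tested, and in such bulk libraries fewer cells of a type and less RNA per cell cannot be told apart.

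Serpina3h was the member with the widest strain difference. Its counts were 138, 226 and 132 in BALB/c replicates 1 to 3 and 3, 0 and 13 in C57BL/6 replicates 1 to 3. On the CPM scale these are 92.1, 80.9 and 128 in BALB/c and 2.29, 0 and 2.65 in C57BL/6. Every BALB/c library lay far above every C57BL/6 library, and the lowest BALB/c level was 30.5 times the highest C57BL/6 level. The mean level was 100.2 ± 24.5 CPM in BALB/c against 1.65 ± 1.44 CPM in C57BL/6 (SD, n = 3 each), and the log2 difference, BALB/c minus C57BL/6, was 5.66 ± 0.63 (SE of the edgeR fit). Serpina3h was the 1 row of 4 whose strains did not overlap, while 995 of all 8752 tested genes, or 11.4%, did not overlap in either direction; since the row was picked from this contrast, nothing is read from that share.

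The C57BL/6 level rested on few counts. The 0 counts of replicate 2 allow up to 2.34 CPM by the limit of 3 counts. The exact 95% Poisson interval was 0.473 to 6.7 CPM for the 3 counts of replicate 1 and 0 to 2.85 CPM for the 0 counts of replicate 2. In replicate 3, by depth the best measured library, it was 1.41 to 4.54 CPM, so some counts were assigned to Serpina3h in C57BL/6 as well. Without replicate 3 of C57BL/6 the log2 difference was 6.32. In BALB/c the lowest bound of the 3 intervals was 70.7 CPM. These intervals cover counting error only.

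Serpina3k, the liver-type inhibitor, was the other member that passed the filter on low counts, and its levels overlapped between the strains. It measured 26.7, 35.1 and 58.1 CPM in the BALB/c replicates, from 40, 98 and 60 counts. In the C57BL/6 replicates it measured 39, 50 and 15.1 CPM, from 51, 64 and 74 counts. The highest library was BALB/c replicate 3 and the lowest C57BL/6 replicate 3, and each strain spanned most of the range. The means were 39.9 ± 16.2 and 34.7 ± 17.8 CPM (SD, n = 3 each), with a log2 difference of 0.22 ± 0.51 (SE). The sign of that difference turned to -0.14 without BALB/c replicate 3 and to -0.18 without C57BL/6 replicate 3.

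**Figure D1:**
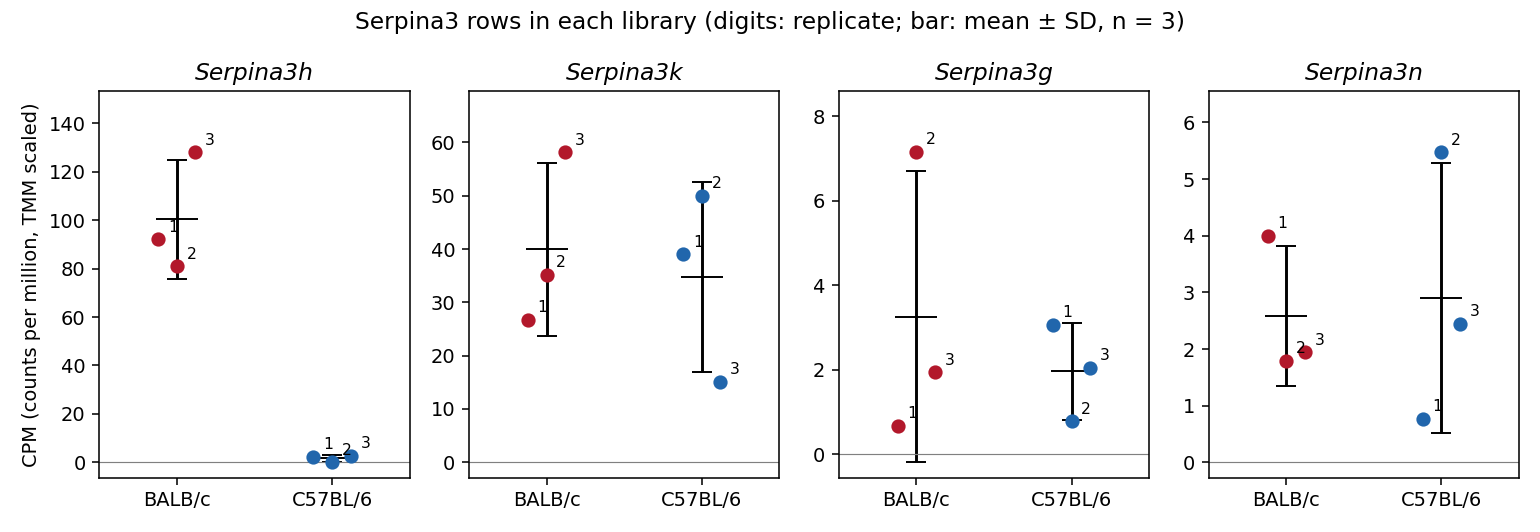
Level of each Serpina3 row (y axis, CPM after TMM scaling, a separate scale per panel) in the 3 BALB/c and 3 C57BL/6 libraries; points are libraries numbered by replicate and bars the mean ± SD. Only in the Serpina3h panel do the strains lie apart, at 80.9 to 128 CPM against 0 to 2.65 CPM.

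Serpina3g and Serpina3n, the 2 members with known roles in or against immune cells, were barely counted and fell below the filter. Serpina3g, the cathepsin inhibitor, had 1, 20 and 2 counts in BALB/c and 4, 1 and 10 counts in C57BL/6. As levels these are 0.667, 7.16 and 1.94 CPM against 3.06, 0.782 and 2.04 CPM, so a single library, BALB/c replicate 2, was high and the strains overlapped. Fitted without the filter, its log2 difference was 0.84 ± 0.89 (SE).

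Serpina3n, the granzyme B inhibitor, had 6, 5 and 2 counts in BALB/c and 1, 7 and 12 counts in C57BL/6. These equal 4, 1.79 and 1.94 CPM against 0.764, 5.47 and 2.45 CPM, again with overlapping strains. Its log2 difference without the filter was -0.15 ± 0.79 (SE). With 13 counts in all of BALB/c and 20 in all of C57BL/6, a moderate strain difference was not detectable at this depth.

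The family sum followed Serpina3h. It was 123, 125 and 189.7 CPM in BALB/c and 45.1, 56.3 and 22.2 CPM in C57BL/6, so the strains did not overlap and the lowest BALB/c library was 2.18 times the highest C57BL/6 library. The mean was 146 ± 37.8 CPM against 41.2 ± 17.3 CPM (SD, n = 3 each), and the log2 difference was 1.84 ± 0.40 (SE). With Serpina3h left out, an alternative chosen after seeing the data, the sum was 31.4, 44 and 61.9 CPM in BALB/c and 42.8, 56.3 and 19.6 CPM in C57BL/6. The strains then overlapped, with a log2 difference of 0.22 ± 0.46 (SE). With library quality weights in limma this difference was 1.10.

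The make-up of the family count differed accordingly. In BALB/c, Serpina3h made up 496 of 730 family counts (67.9%), Serpina3k 27.1%, Serpina3g 3.15% and Serpina3n 1.78%. In C57BL/6, Serpina3k made up 189 of 240 counts (78.8%), Serpina3n 8.33%, Serpina3h 6.67% and Serpina3g 6.25%. By library, the Serpina3h share was 74.6%, 64.8% and 67.3% in BALB/c, with exact Clopper-Pearson intervals at 95% that reached from 59.5% at the lowest to 80.7% at the highest. In C57BL/6 it was 5.08% of 59 counts (1.06 to 14.1%) and 11.9% of 109 counts (6.51 to 19.5%) in replicates 1 and 3. In replicate 2 it was 0 of 72 counts (0 to 4.99%), and the limit of 3 counts allows a share of up to 4.17%. Serpina3k led the family in each C57BL/6 library and Serpina3h in each BALB/c library.

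**Figure D2:**
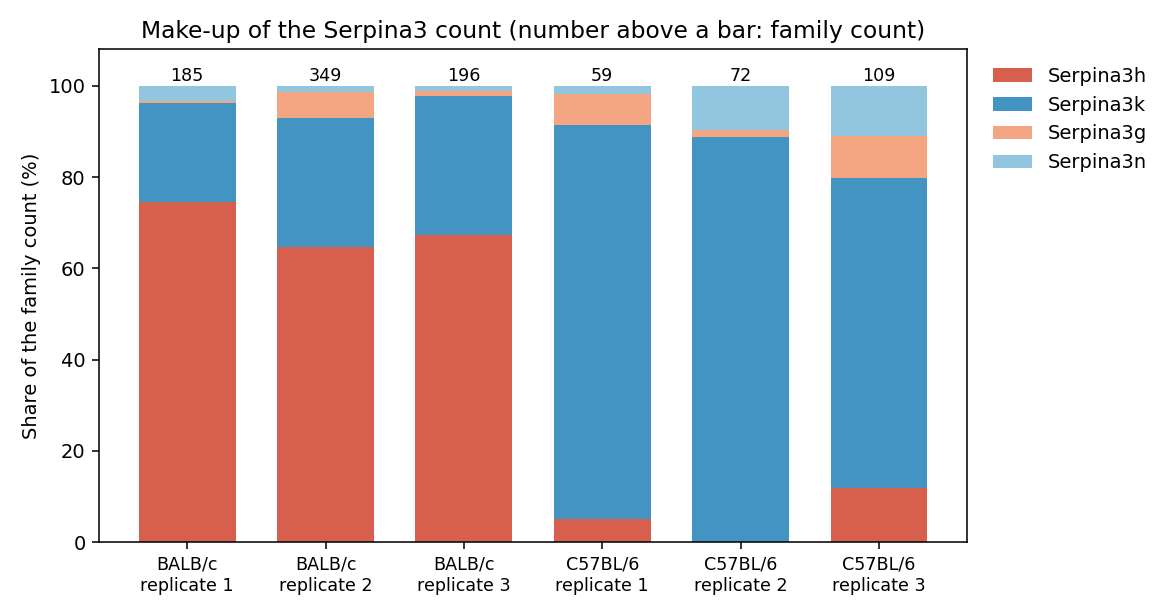
Share of the summed Serpina3 count (y axis, %) that each member takes in each of the 6 libraries (x axis), with the summed count above each bar. Serpina3h takes 64.8 to 74.6% of the bar in BALB/c and 0 to 11.9% in C57BL/6, where Serpina3k fills 67.9 to 88.9%.

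Levels are compared between the members as counts from 3′ ends, which depend little on transcript length, but the annotated 3′ ends differ. Transcripts of Serpina3g, Serpina3k and Serpina3n continue for 613, 723 and 723 bases after the coding part. The annotated Serpina3h transcript of 1226 bases and 4 exons ends where Serpina3k and Serpina3n have their stop codon. Reads that start further down would lie outside its annotated exons, and whether they exist was not tested.

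Near-identical copies bear on which member a read is given to. Over the aligned coding part Serpina3h was 93.7% identical to Serpina3i, 91.9% to Serpina3f, 89.5% to Serpina3g, 85.9% to Serpina3n and 81.5% to Serpina3k. Serpina3f and Serpina3i are not rows of the table. In the last 500 bases of its annotated transcript, the closest copies of Serpina3h were Serpina3i (91%), Serpina3g (90.5%) and Serpina3f (90.3%). The closest of Serpina3k was Serpina3c (88.3%). These bases align with the coding part for Serpina3h, but lie after the coding part for Serpina3g, Serpina3k and Serpina3n. They are thus not the same region, and for Serpina3h they need not be what 3′ libraries mainly sample.

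Exact sharing was smaller in the last 500 bases. Of the 451 windows of 50 bases in the last 500 bases of Serpina3h, 19 (4.21%) were found letter for letter in a transcript of another gene, 16 of them in Serpina3g. The share was 2.44% for Serpina3g and 0% for Serpina3k and Serpina3n, and at 75 bases it was 0% for all 4. With windows of 30 bases it was 27% for Serpina3h, 16.3% for Serpina3g, 8.28% for Serpina3k and 1.91% for Serpina3n. Over whole transcripts the shares were higher. At 50 bases they were 23.9% for Serpina3h, 16% for Serpina3g, 14% for Serpina3k and 6.9% for Serpina3n. At 75 bases the same members had 12.9%, 8.91%, 7.36% and 1.46%. Neither the read length nor the handling of reads with several matches is given here. Exons of Serpina3k and Serpina3m also share 60 of 2057 bases (2.92%) on the annotation.

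Serpina3g, the tabled copy most identical to Serpina3h over the aligned coding part, held 23 counts in BALB/c and 15 in C57BL/6, against 496 and 16 for Serpina3h. With these counts the sum of both could only keep the order of Serpina3h. It says nothing of Serpina3i and Serpina3f, which are not rows of the table. Reads of BALB/c copies that are absent from the C57BL/6 reference could be given to any member. The part of this in the Serpina3h count was not tested.

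Serpina3k moved from library to library with transcripts that are made mainly by hepatocytes, though not with these alone. Of 7 hepatocyte markers 6 were in the table (Fga was not), and all 6 were counted in every library, Alb with the most counts (1231) and Apoh with the fewest (89). They summed to 199 to 390 CPM in BALB/c and 137 to 359.5 CPM in C57BL/6, so the strains overlapped. Over the 6 libraries Pearson's r of log2 CPM with Serpina3k was 0.90 for Alb (albumin), 0.94 for Apoa1 (the main apolipoprotein of high-density lipoprotein), 0.79 for Ttr (transthyretin), 0.76 for Ahsg (fetuin-A) and 0.74 for Apoh. For Serpina1a to Serpina1e, the alpha-1-antitrypsin genes of the same chromosome, which were chosen after their values were seen, r was 0.73 to 0.94. The same genes had r of -0.32 to 0.47 with Serpina3h. That row was picked for its strain difference, so nothing is read from these lower values. Genes outside the marker list had higher r with Serpina3k: Rpl37rt (0.962), Ruvbl1 (0.96) and Eno1 (0.955). The shared movement was thus not particular to hepatocyte genes. These correlations are descriptions over 6 libraries that share their depth and strain.

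Set against the 5 hepatocyte markers that are not serpins (Alb, Apoa1, Ttr, Ahsg and Apoh), Serpina3k was steadier. These 5 held 287, 628 and 384 counts in the BALB/c replicates and 228, 442 and 634 counts in the C57BL/6 replicates. Per 100 of these counts there were 13.9, 15.6 and 15.6 counts of Serpina3k in BALB/c and 22.4, 14.5 and 11.7 in C57BL/6. The coefficient of variation over the 6 libraries was 23.2% for this ratio and 41.6% for the Serpina3k CPM. No such ratio was computed for genes outside the marker list, so the steadier ratio cannot be called particular to these markers. The library with the highest ratio was C57BL/6 replicate 1, the one that stood apart in the whole table.

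The Serpina1a to Serpina1e genes are near-identical copies, so their sum is used. It kept almost a fixed ratio to the same markers, at 69.3, 68.9 and 67.4 per 100 in BALB/c and 66.2, 60.4 and 65.3 per 100 in C57BL/6. Its coefficient of variation was 4.9% as a ratio and 39.1% as CPM. Serpina3h kept no such ratio across strains, with 48.1, 36 and 34.4 per 100 in BALB/c and 1.32, 0 and 2.05 per 100 in C57BL/6. It was picked for its strain difference, and the marker sums overlapped between the strains. The missing ratio thus follows from the choice, and nothing is read from it. Within BALB/c alone the coefficient of variation of Serpina3h was 19% as a ratio and 24.4% as CPM. Markers of a liver cell were thus present at low levels in all 6 libraries of cells from the fat pad, and their part in the Serpina3k and Serpina3h values was not tested.

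**Figure D3:**
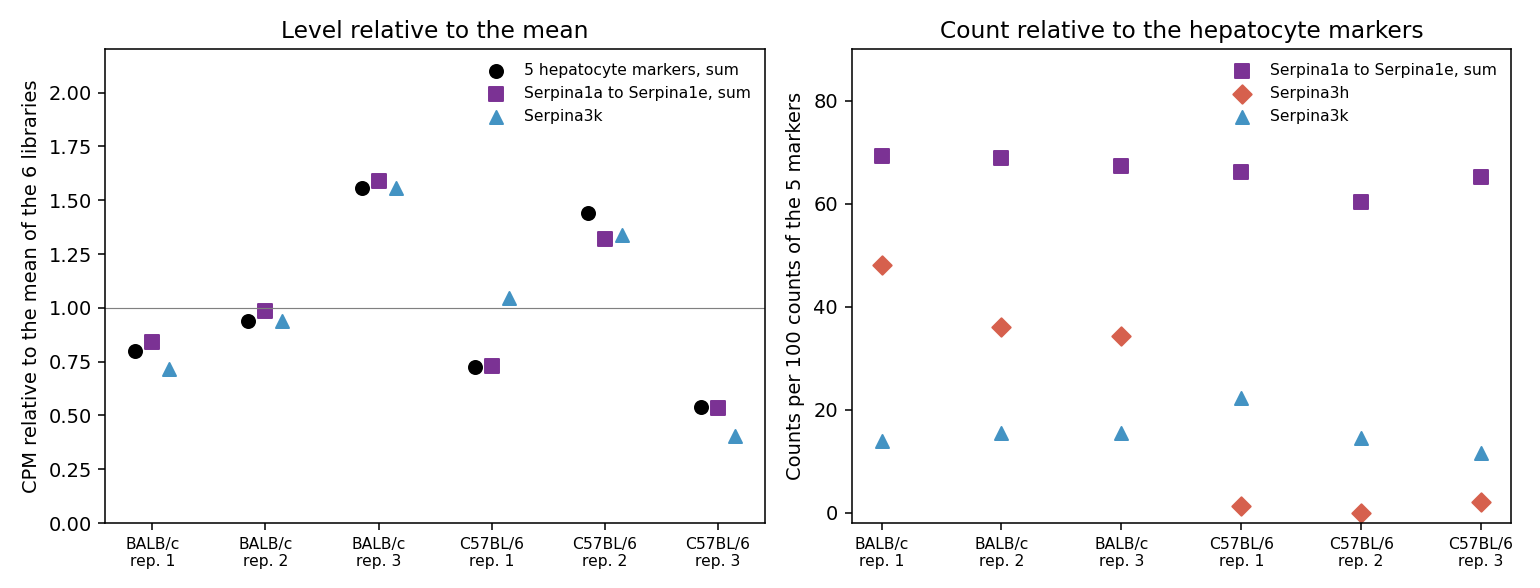
Left, CPM of Serpina3k, of the sum of 5 hepatocyte markers and of the sum of Serpina1a to Serpina1e in each library, each divided by its mean over the 6 libraries; right, counts per 100 counts of the 5 markers. The Serpina1 sum stays at 60.4 to 69.3 per 100 in both strains, Serpina3k at 11.7 to 22.4, and Serpina3h lies at 34.4 to 48.1 in BALB/c and at 0 to 2.05 in C57BL/6.

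Around the family, genes of 6 lists were tested between the strains over all 8752 tested genes with edgeR's quasi-likelihood test and Benjamini-Hochberg adjustment. Over all genes 18 passed an adjusted p of 0.05 (0.206%), 6 higher in BALB/c (0.0686%) and 12 lower (0.137%). Of the 83 tested genes of the lists, 0 passed, by edgeR or by DESeq2. At an unadjusted p under 0.05 there were 5 of the 83 (6.02%), against 338 of all tested genes (3.86%). In 10 of the 83 (12%) the strains did not overlap, against 11.4% of all tested genes.

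Serpins outside the family include inhibitors with other targets and some that inhibit no protease, and 20 were in the table, of which 15 were tested. Their median log2 difference was 0.18, with 10 values above 0 and 5 below, against a median of 0.01 over all tested genes. The values above 0 include those of Serpina1a to Serpina1e (0.18 to 0.73), near-identical copies that enter here as separate genes. Serpinh1, the collagen chaperone of the endoplasmic reticulum, was at 1974 ± 519 CPM in BALB/c against 2326 ± 457 CPM in C57BL/6 (SD, n = 3 each), and Serpinf1, which encodes the secreted factor PEDF, at 1103 ± 643 and 1072 ± 538 CPM. Both stood far above every Serpina3 row in level. Their log2 differences were -0.24 ± 0.28 and 0.04 ± 0.50 (SE), with edgeR adjusted p of 0.954 and 0.995. Serpine2, an inhibitor of thrombin named after its values were seen, had the only unadjusted p under 0.05 of the list. It was at 114 ± 34.8 and 211 ± 43.4 CPM, with a log2 difference of -0.89 ± 0.30 (SE) and an edgeR adjusted p of 0.954.

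The neighbours of the cluster on chromosome 12, within 1000000 bases on either side, numbered 16, of which 11 were tested. Their median log2 difference was 0.04, with 6 values above 0 and 5 below, and they ranged from -0.48 to 0.73. Apart from Glrx5, the values above 0 were those of the near-identical Serpina1a to Serpina1e. The nearest tested gene on the lower side, Serpina1e, lies 153.7 kb from the cluster and was at 100.2 ± 30.6 CPM in BALB/c against 73.4 ± 37.5 CPM in C57BL/6, a log2 difference of 0.45 ± 0.42 (SE, edgeR adjusted p of 0.954). The nearest on the upper side, Glrx5, which acts in iron-sulfur cluster assembly, lies 618.4 kb away and was at 225 ± 24.7 and 219 ± 5.82 CPM, a log2 difference of 0.04 ± 0.21. Ifi27, an interferon-induced gene, and Ddx24, an RNA helicase gene, had log2 differences of -0.22 ± 0.21 and -0.15 ± 0.22. The Serpina3h value of 5.66 lay outside the range of all 11 neighbours, and Serpina3k, on the same cluster, lay inside it. Serpina3h was picked for its strain difference, so nothing is read from its place outside that range.

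**Figure D4:**
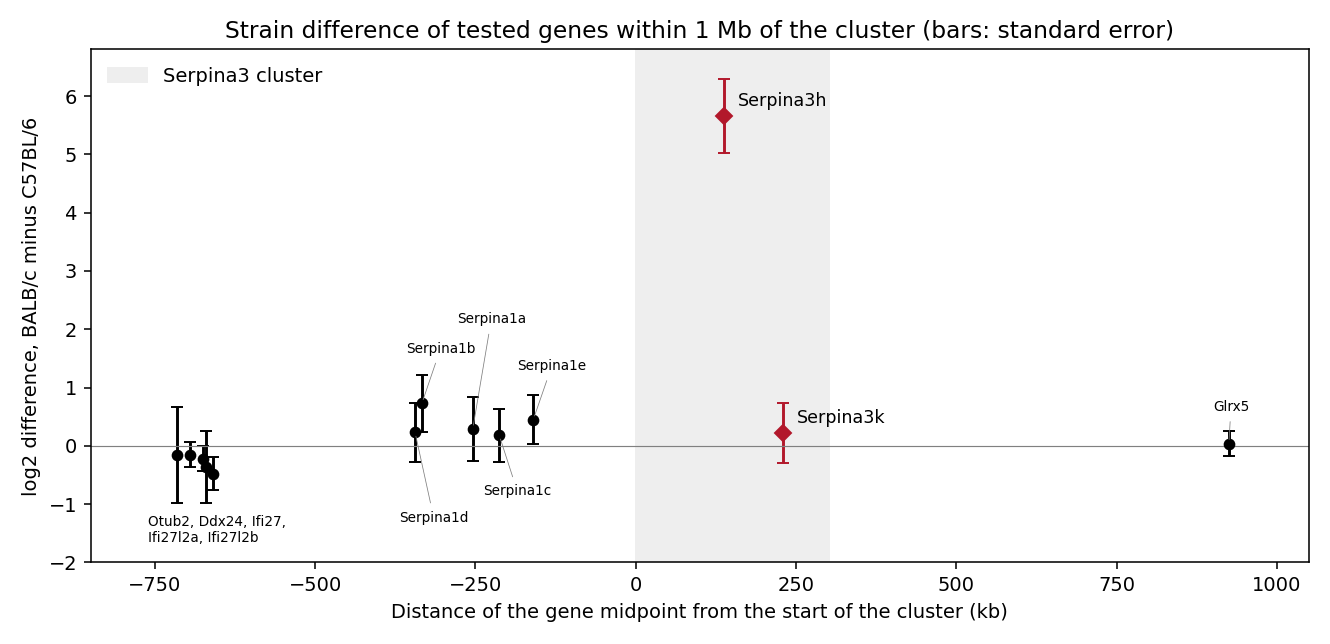
Log2 difference between the strains (y axis, BALB/c minus C57BL/6, bars ± SE) of the 11 tested neighbours, and of Serpina3h and Serpina3k, against the distance of the gene from the start of the cluster (x axis, kb; the cluster is shaded). The neighbours lie between -0.48 and 0.73, as does Serpina3k at 0.22, and Serpina3h, picked for its strain difference, lies at 5.66.

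The proteases that Serpina3 proteins or related inhibitors act on, with matrix proteases, made a list of 18, of which 8 were in the table and 6 tested. The genes of granzyme B (Gzmb) and neutrophil elastase (Elane), the targets named above for Serpina3n, were not in the table. Prtn3 and Ctsl were in it but not tested. The median log2 difference was -0.23, with 3 values above 0 and 3 below. Mmp9, a gelatinase, was at 927 ± 625 CPM in BALB/c against 456 ± 207 CPM in C57BL/6, a log2 difference of 1.02 ± 0.65 (SE). Mmp14, a collagenase of the cell surface, and Mmp2, a gelatinase that it activates, had log2 differences of -0.74 ± 0.38 and -0.86 ± 0.41, and that of Mmp14 was -0.23 without C57BL/6 replicate 1. The edgeR adjusted p was 0.954 for each of the 3. The 2 members with an unadjusted p under 0.05, named after their values were seen, were Mcpt8, a basophil protease, at 40.7 ± 5.89 and 17.9 ± 5.02 CPM, and Ctss (cathepsin S) at 62.2 ± 14.4 and 103 ± 26.2 CPM. Their log2 differences were 1.16 ± 0.34 and -0.74 ± 0.30 (SE), with edgeR adjusted p of 0.853 and 0.954.

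Acute phase cytokines act on Serpina3 genes through receptors and factors of the STAT, NF-kB and C/EBP families. Of 24 such genes 20 were tested, with a median log2 difference of -0.3, 5 values above 0 and 15 below. Stat3, the factor downstream of interleukin 6, was at 121 ± 14 CPM in BALB/c against 203 ± 90.6 CPM in C57BL/6, a log2 difference of -0.75 ± 0.34 (SE), which was -0.36 without C57BL/6 replicate 1. Cebpb, a factor of acute phase genes, and Tnfrsf1a, a receptor of tumour necrosis factor, had log2 differences of -0.23 ± 0.24 and 0.03 ± 0.22, with edgeR adjusted p of 0.954 and 0.988.

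Other acute phase and cytokine response genes numbered 33, of which 25 were tested, with a median of -0.04, 10 values above 0 and 15 below. Timp1, an inhibitor of matrix metalloproteases, was at 2943 ± 324 CPM in BALB/c against 3620 ± 963 CPM in C57BL/6, a log2 difference of -0.30 ± 0.26 (SE). The metallothioneins Mt1 and Mt2, which bind zinc, had log2 differences of -0.75 ± 0.58 and -0.94 ± 0.54, with C57BL/6 replicates that differed widely (1479 ± 1189.6 CPM for Mt1, n = 3). Without C57BL/6 replicate 1, the library that stood apart, they were 0.11 for Mt1 and -0.14 for Mt2. Il11, a cytokine of the interleukin 6 family, and Icam1, an adhesion molecule, were the 2 with an unadjusted p under 0.05 and were named after their values were seen. Il11 was at 100.1 ± 23.3 and 208 ± 60.6 CPM, with a log2 difference of -1.06 ± 0.31 and an edgeR adjusted p of 0.868. Icam1 was at 23.2 ± 9.79 and 54 ± 15.8 CPM, with a log2 difference of -1.20 ± 0.41 and an edgeR adjusted p of 0.954.

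Glucocorticoids also act on genes of the family, and 12 of 15 genes of that response were tested, with a median log2 difference of 0.13, 7 values above 0 and 5 below. Ddit4, an inhibitor of mTOR signalling, was at 343 ± 90 CPM in BALB/c against 410 ± 277 CPM in C57BL/6, and its log2 difference of -0.26 ± 0.55 (SE) turned to 0.33 without C57BL/6 replicate 1. Angptl4, an inhibitor of lipoprotein lipase, was at 139 ± 49.7 and 224 ± 32 CPM, a log2 difference of -0.68 ± 0.32 (SE). Mt2 is a member of this list too.

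**Figure D5:**
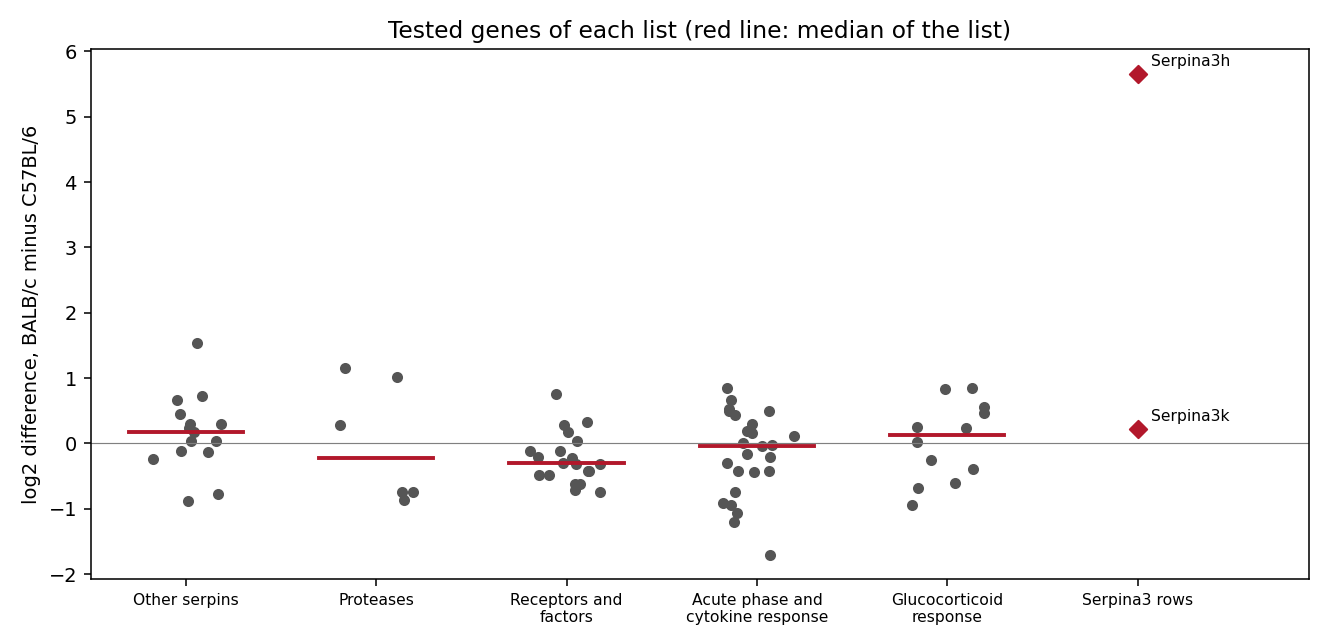
Log2 difference between the strains (y axis, BALB/c minus C57BL/6) of each tested gene of 5 lists, with the list median as a red line, and of Serpina3h and Serpina3k at the right. The list medians lie between -0.3 and 0.18, and Serpina3h, picked for its strain difference, lies at 5.66, above every point.

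The genes most like each member were taken as the 5 with the highest Pearson's r of log2 CPM over the 6 libraries, among 4461 genes of mean log2 CPM of at least 5. The values describe 6 libraries that share strain and depth, and the highest of so many correlations lie near 1 by selection. For Serpina3h they were Mrpl49 (0.984), Psmg4 (0.976), Eloa (0.975), H2-Ab1 (0.968) and Gfer (0.958). All were higher in each BALB/c library than in each C57BL/6 library, while 11.4% of all tested genes did not overlap in either direction. Serpina3h was picked for its strain difference, so that split follows from the choice and nothing is read from it. H2-Ab1, a class II antigen presentation gene whose haplotype differs between these strains, was at 52, 69.1 and 84.2 CPM in BALB/c and 17.6, 17.2 and 20.2 CPM in C57BL/6. Gfer, a sulfhydryl oxidase of mitochondria, was at 79.4, 77.3 and 76.5 CPM against 27.5, 25.8 and 22 CPM.

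For Serpina3k they were Rpl37rt (0.962), Ruvbl1 (0.96), Eno1 (0.955), Apoa1 (0.942) and Manbal (0.93). Apoa1, also one of the hepatocyte markers above, was at 37.4, 41.9 and 60 CPM in BALB/c and 35.1, 51.6 and 23.9 CPM in C57BL/6. Like Serpina3k it was highest in BALB/c replicate 3 and lowest in C57BL/6 replicate 3, but C57BL/6 replicate 1 ranked lower for Apoa1 than for Serpina3k. The genes most like Serpina3g were Dtd1, Ctla2a, Fbxw9, Cyth2 and Pomp (0.948 to 0.967), and those most like Serpina3n were Nop14, Ankib1, Antxr1, Noa1 and Gas5 (0.985 to 0.999). Both of these orders rest on the few counts of Serpina3g and Serpina3n given above. With library totals alone, r was 0.845 for Dtd1, 0.844 for Noa1 and 0.862 for Gas5.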

How the data were processed

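Female mammary fat pad fibroblasts of 2 strains were measured in 6 libraries of 3′ ends of polyadenylated RNA, grouped by the strain in the labels. The table deposited by the authors holds raw counts by gene symbol. The submitters' processing notes name mm10 and the tools STAR 2.4.2a, HTSeq and bcl2fastq, without settings. Each of the 12023 genes reaches at least 6 counts in a library.

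Counts were fitted with edgeR 4.0.16 in R 4.3.3 (filterByExpr by strain, TMM, robust quasi-likelihood, two-sided, adjustment over all 8752 genes, threshold 0.05), which was also tested on simulated data. The SE is the size of a log2 difference divided by the square root of F, and log2 CPM had a prior count of 2. Alternatives used DESeq2 1.42.0 and limma 3.58.1. Per the labels replicates are biological. Between replicates, chi-square over degrees of freedom was 10.8 to 57.2, above sampling noise, so no library was taken as a copy. The labels name no batch. Sequences are GENCODE vM21 transcripts, searched with BLAST+ 2.17.0, aligned with MAFFT 7.526 and scanned for exact windows.

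The members and lists were chosen with earlier results of these data known. From each list the 3 tested genes with the highest mean level were named, with the nearest tested neighbours and the 5 genes most like each member; others are marked. Of the genes this rule takes, 1 is not reported here. The main fit did not pair samples by replicate number.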

Additional observations from a re-analysis of the deposited data

How the results depend on the processing

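Serpina3h stayed higher in BALB/c under every alternative, with log2 differences of 5.28 to 6.32 when single libraries were left out. For Serpina3k the same fits gave -0.18 to 0.61, for the family sum 1.51 to 2.17 and for the sum without Serpina3h -0.13 to 0.56. Library quality weights moved Serpina3k to 1.25, the family sum to 2.62 and the sum without Serpina3h to 1.10; the cause was not tested. The count of genes past the threshold, 18 in edgeR, was 71 with DESeq2, 3 with limma-voom, 57 with quality weights, 11 with library totals alone and 0 to 25 when single libraries were left out (4 without BALB/c replicate 1, 5 without C57BL/6 replicate 2, 25 without C57BL/6 replicate 1). It fell to 0 when C57BL/6 replicate 3 was left out (261 genes at an unadjusted p under 0.05), and likewise for replicates 2 and 3 of BALB/c, with 205 and 226 genes at an unadjusted p under 0.05 in edgeR. The labels do not say that the replicate numbers shared by the strains pair the samples. The deviations of same-numbered libraries correlated at -0.42, -0.40 and -0.08, and 0 of 6 libraries correlated best with their own number. With 3 libraries per strain that differ in cell type markers, these values cannot show whether the numbers mark pairs. With the number as a replicate block, 0 genes passed in edgeR (158 at an unadjusted p under 0.05), and the log2 difference was 5.93 for Serpina3h, 0.26 for Serpina3k and 1.89 for the family sum. Of 361 values over 26 named list genes, 343 kept their direction and their side of the threshold and 18 changed sign. Those were Serpinf1 with limma-voom (-0.00), Glrx5, Timp1 and Ddit4 with quality weights (-0.03, 0.06 and 0.07), and fits without a single library. In the latter, Serpinf1 reached -0.54 to 0.54, Glrx5 -0.01 to 0.12, Tnfrsf1a -0.07 to 0.09, Mt1 -1.12 to 0.11, Ddit4 -0.65 to 0.33, Serpina1a -0.18 to 0.69, Serpina1c -0.14 to 0.70 and Serpina1d -0.14 to 0.60. Without C57BL/6 replicate 1, Mt2 was at -0.14. Of the likeness values, library totals alone moved those of Dtd1, Noa1 and Gas5. Depth limits Serpina3g and Serpina3n most, as 1 count is a large part of their level in most libraries.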
